A study of Rattus norvegicus with 6 samples.

Results

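Osr1, Isl1, Nfatc4 and Prdm6 encode transcription factors of 4 different families, and all of them had lower read counts in the ventromedial hypothalamus (VMH) of rats exposed to predator odor (PO) than in the VMH of rats exposed to control odor. The 4 genes were selected on their adjusted p and fold change between these same libraries, as they are among those that the study had called different, out of 29039 features in the deposited count table, of which 16685 were tested here. Their lower level after PO exposure is therefore part of how they were chosen, and it is described below without a test.

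The tissue came from 6 male Sprague Dawley rats with a labelled age of about 10 months, and each rat gave 1 library. In the PO group (libraries P8, P13 and P14) a piece of towel used as ferret bedding was put into the home cage for 20 minutes, and in the control odor group (libraries C2, C3 and C4) a clean piece of the same towel was used. Both groups had been handled and given the control odor every day for 2 weeks before the test. Poly-A RNA from bilateral VMH micropunches was sequenced, and a punch of this kind can also take up tissue at the edge of the nucleus.

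The 4 proteins come from different families, though Osr1 and Prdm6 both carry zinc fingers. Osr1 is a zinc finger protein of the odd-skipped family, known in mice for its part in the development of the kidney, the heart and connective tissue. Isl1 is a LIM homeodomain protein that specifies motor neurons, pancreatic islet cells and heart progenitors, and in the mouse arcuate nucleus, which borders the VMH, it acts in the formation of Pomc neurons. Nfatc4 belongs to the NFAT family, whose members enter the nucleus once the calcium-dependent phosphatase calcineurin has removed phosphate groups from them. Prdm6 carries a PR/SET domain and zinc fingers, and in mice it acts as a repressor in smooth muscle cells.

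The stretches in front of the transcript start are shown for the members found in the RefSeq promoter table of the rat assembly GRCr8, so that the letters of the regulatory sequence can be read beside the levels. Osr1 and Isl1 had an entry, which makes 2 of 4, and Nfatc4 and Prdm6 are named only. Each window holds the 250 bases before the start on the gene's own strand. The Osr1 window lies at chr6:38097401-38097650 on the plus strand, with a start 8963 bases inside the span that RefSeq gives for the gene, and the Isl1 window lies at chr2:49823443-49823692 on the minus strand. Capitals mark GGAAA, the core of NFAT sites, and TAAT, the core of homeodomain sites, searched on both strands, so that a match on the other strand appears as the reverse complement.
Osr1: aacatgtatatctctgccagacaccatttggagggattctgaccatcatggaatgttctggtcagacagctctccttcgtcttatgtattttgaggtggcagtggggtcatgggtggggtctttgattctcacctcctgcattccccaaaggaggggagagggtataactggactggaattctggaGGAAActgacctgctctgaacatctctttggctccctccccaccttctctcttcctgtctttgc
Isl1: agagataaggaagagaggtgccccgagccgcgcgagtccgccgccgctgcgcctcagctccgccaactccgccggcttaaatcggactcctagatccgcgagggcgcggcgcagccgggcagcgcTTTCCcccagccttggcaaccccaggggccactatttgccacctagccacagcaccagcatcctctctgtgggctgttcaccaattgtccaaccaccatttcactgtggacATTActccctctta

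The Osr1 window held GGAAA once, with its first base 64 bases before the start, and no TAAT. The Isl1 window held GGAAA once on the other strand, with its first base 125 bases before the start, and TAAT once on the other strand, 14 bases before it. On either strand, GGAAA occurred in 56.9% and TAAT in 57% of 33469 RefSeq windows of the same length, so each is a frequent match. The cAMP response element TGACGTCA, which was in 1.59% of the windows, was in neither. The start of the Osr1 window may be that of an inner transcript, so its match positions hold for that start only. GC made up 50.0% of the Osr1 window and 62.8% of the Isl1 window, against a median of 51.2% over all windows. A match describes the letters of the window and is not a measured binding site.

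Library totals lay between 15835375 and 20316213 counts. Levels are given as counts, as CPM, which divides the counts by library size after scaling with the trimmed mean of M-values (TMM), and as the authors' FPKM, which also divides by gene length and is the scale on which genes can be set beside each other. The 12 VMH neuron markers listed for a check of the tissue label have no name in the sources used here, so that check was not made. In bulk tissue, fewer cells of a type and less RNA per cell cannot be told apart.

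Prdm6 (ENSRNOG00000030486) was listed at 0 counts in all 3 PO libraries. In the control odor libraries C2, C3 and C4 it had 18, 12 and 31 counts, which is 61 in all. On the CPM scale the control odor level was 1.14 ± 0.480 (SD, n = 3), and on the FPKM scale it was 0.662 ± 0.271. With 3 counts taken as the limit for a count of 0, the limits were 0.150, 0.166 and 0.179 CPM in P8, P13 and P14. The 95% Poisson intervals reached higher, to 0.185, 0.204 and 0.221 CPM. All of these limits lie below the lowest control odor library at 0.735 CPM.

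Pooled over the 3 libraries of a group, the limit for the PO libraries was 0.0547 CPM, against 1.16 CPM in the control odor libraries. The pooled control odor level was thus 21.2 times the PO limit, which is a floor of 3 counts over the whole PO group. This ratio leaves out the counting error of the control odor counts, so it is no lower bound. The PO limits cover counting error only. Of the 29039 features, Prdm6 was the only 1 with 0 counts in every PO library and at least 12 counts, its own lowest control odor value, in every control odor library. With the groups exchanged, 0 features met the same limits. The count of 12 was set after the values had been seen. Even in the control odor libraries Prdm6 was a weakly expressed gene, with a mean FPKM above only 7.90% of the tested genes.

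Osr1 (ENSRNOG00000004210) had 17, 2 and 5 counts in the PO libraries P8, P13 and P14, against 38, 80 and 133 counts in the control odor libraries C2, C3 and C4. This is 0.851, 0.110 and 0.299 CPM after PO exposure and 2.15, 4.90 and 7.17 CPM after control odor. The groups did not overlap, and the libraries nearest to each other were P8 and C2. The 95% Poisson interval was 0.496 to 1.36 CPM for P8 and 1.52 to 2.95 CPM for C2, which covers counting error only and not the difference between rats.

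The mean Osr1 level was 0.420 ± 0.385 CPM in PO libraries and 4.74 ± 2.51 CPM in control odor libraries (SD, n = 3 each), so the control odor mean was 11.3 times the PO mean. Osr1 varied more within a group than Isl1 and Nfatc4 did. Its coefficient of variation was 91.6% in PO libraries and 53.0% in control odor libraries, and its highest level was 7.71 times the lowest in PO libraries and 3.33 times in control odor libraries. The PO value of P13 rests on 2 counts, with an interval of 0.0134 to 0.399 CPM. The fitted log2 fold change of PO over control odor was -3.44 (SE 0.68), and 5 of the 16685 tested genes had a lower one. By mean FPKM, Osr1 stood above 1.58% of the tested genes in PO libraries and above 32.4% in control odor libraries.

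**Figure D1:**
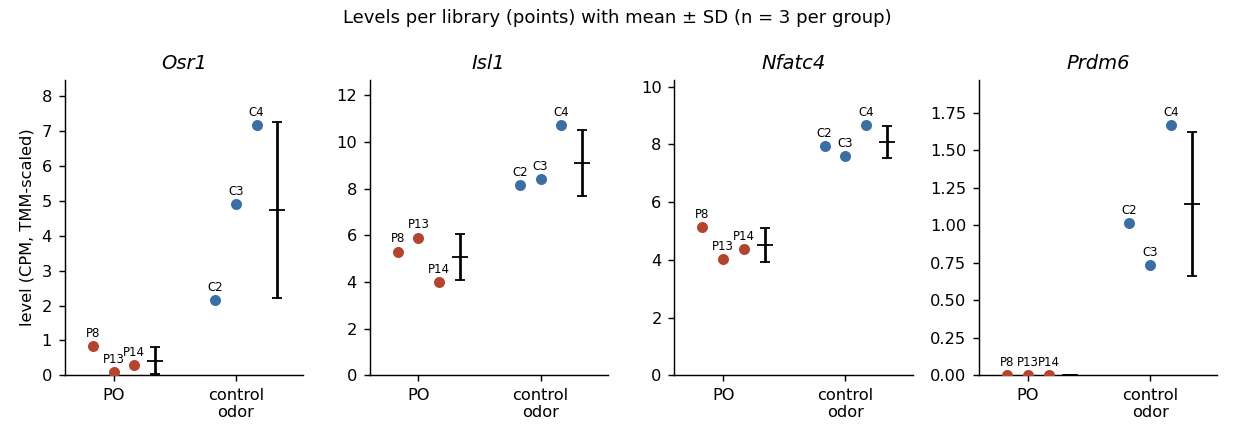
Level of each gene in CPM (vertical axis, from 0, with its own scale for each gene) in the PO libraries and the control odor libraries. Points are single libraries and bars show the mean ± SD of 3 libraries. Every PO library lies below every control odor library for each of the 4 genes, Prdm6 is at 0 in P8, P13 and P14, and C4 is the highest control odor library in all 4 plots.

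Isl1 (ENSRNOG00000012556) was the member with the highest FPKM. It had 106, 107 and 67 counts in PO libraries P8, P13 and P14, against 144, 137 and 199 counts in control odor libraries C2, C3 and C4. Its level was 5.30, 5.90 and 4.01 CPM after PO exposure, against 8.16, 8.40 and 10.7 CPM after control odor. The groups did not overlap, with P13 as the highest PO library and C2 as the lowest control odor library. The mean was 5.07 ± 0.968 CPM in PO libraries and 9.09 ± 1.42 CPM in control odor libraries (SD, n = 3 each), a control odor mean 1.79 times the PO mean. The gap between the nearest libraries was smaller, with C2 at 1.38 times P13. The log2 fold change was -0.84 (SE 0.19), and coefficients of variation were 19.1% in PO and 15.6% in control odor libraries.

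Nfatc4 (ENSRNOG00000020482) had 103, 73 and 73 counts in PO libraries P8, P13 and P14, against 140, 124 and 161 counts in control odor libraries C2, C3 and C4. On the CPM scale it had 5.15, 4.03 and 4.37 in PO libraries and 7.93, 7.60 and 8.68 in control odor libraries. Of the 3 genes with counts in PO libraries it was the tightest within groups, with a coefficient of variation of 12.8% in PO libraries and 6.86% in control odor libraries. The mean was 4.52 ± 0.578 CPM in PO libraries and 8.07 ± 0.553 CPM in control odor libraries (SD, n = 3 each). The control odor mean was 1.79 times the PO mean, and the lowest control odor library, C3, was at 1.47 times the highest PO library, P8. The log2 fold change was -0.84 (SE 0.17), next to that of Isl1 in size.

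Set beside each other per length, Isl1 had the highest and Prdm6 the lowest mean FPKM of the 4 genes in both groups. In PO libraries, mean FPKM was 4.69 ± 0.974 for Isl1, 1.39 ± 0.182 for Nfatc4, 0.243 ± 0.225 for Osr1 and 0 for Prdm6. In control odor libraries it was 8.76 ± 1.27 for Isl1, 2.86 ± 1.495 for Osr1, 2.60 ± 0.150 for Nfatc4 and 0.662 ± 0.271 for Prdm6. In the control odor libraries the Nfatc4 mean lay within 1 SD of the Osr1 mean. The Osr1 mean lay outside the smaller SD of Nfatc4. In the PO libraries every Osr1 value was below every Nfatc4 value. The FPKM of Isl1 exceeded that of 43.4% of the tested genes in PO libraries and 54.8% in control odor libraries. For Nfatc4 these shares were 20.9% in PO libraries and 30.5% in control odor libraries.

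All 4 genes had groups that did not overlap, with PO lower. Over the whole table this held for 13.2% of the tested genes, and for 26.2% in either direction. At an adjusted p of 0.05 from edgeR's quasi-likelihood test, which called 0.21% of the tested genes lower after PO exposure (35 genes) and 0.354% in either direction, 1 of the 4 members, Prdm6, was among the calls. It was not among them without edgeR's robust option, nor without C2, C3, C4 or P14. DESeq2 called 2.08% of the genes it gave an adjusted p as lower. It called Osr1, Isl1 and Nfatc4 and gave no adjusted p to Prdm6. Since the members were drawn from the calls of this comparison, nothing is read from these counts. Whether a member passed the filter on low counts also depended on its control odor level for some of them. At the CPM limit of 0.559, Prdm6 had 0 and Osr1 had 1 of 3 PO libraries at or above it, while all 3 control odor libraries passed for both. Isl1 and Nfatc4 were above it in all 6 libraries.

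**Figure D2:**
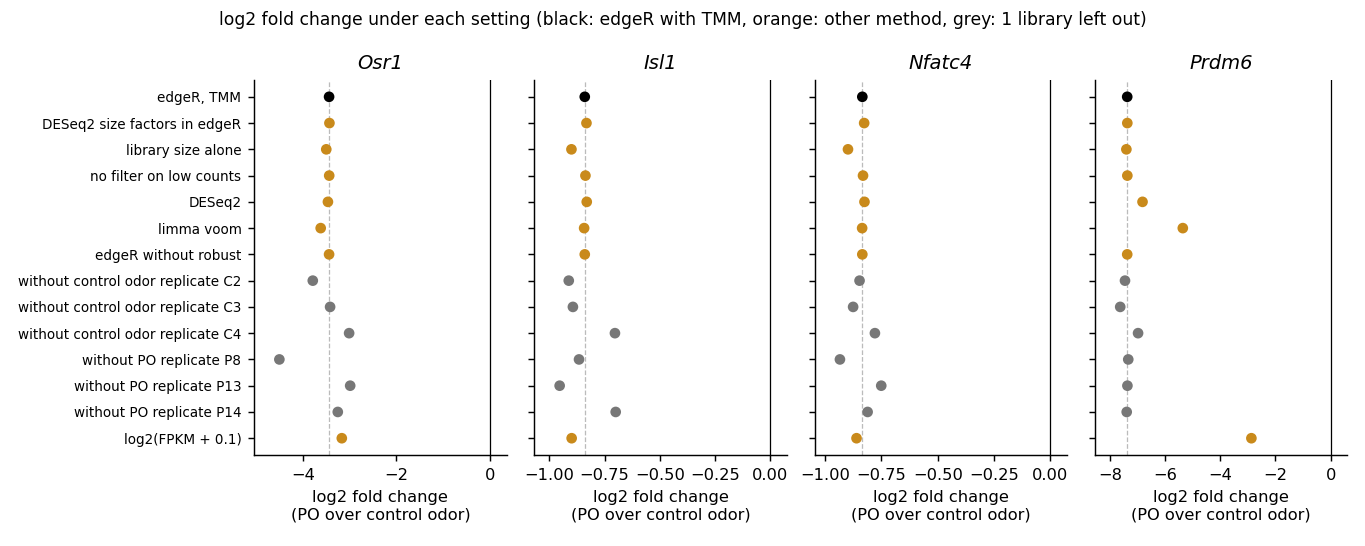
Fitted log2 fold change of PO over control odor (horizontal axis, a different scale for each gene) for the 4 genes under edgeR with TMM (black), other normalizations, filters and tests (orange) and with 1 library left out (grey). Every point lies below 0. Osr1 ranges between -4.50 without P8 and -2.99 without P13, and the Prdm6 value depends on how a count of 0 is treated.

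The size of the difference moved with single libraries most for Osr1, whose log2 fold change was -4.50 without P8 and -2.99 without P13. For Isl1 the values with 1 library left out lay between -0.95 and -0.70, and for Nfatc4 between -0.93 and -0.75. The fitted value of Prdm6, -7.37, depends on the prior count set against its 0 counts and is no bound. It was -2.87 on the log2(FPKM + 0.1) scale.

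The spread among the libraries of 1 group enters an adjusted p, so the within-group values below are not free of the choice of the genes and are a description. Among the control odor libraries, C4 had the highest level of all 4 members, and 36.1% of the tested genes also had their highest control odor level in C4. The lowest control odor library was C2 for Osr1 and Isl1 and C3 for Nfatc4 and Prdm6. Among the PO libraries, P8 was the highest for Osr1 and Nfatc4 and P13 the highest for Isl1. Thus the 3 genes with counts in PO libraries did not share 1 order there.

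As deviations from the mean log2 CPM of the own group, Osr1 and Nfatc4 had the highest Pearson r of the 6 pairs of members, at 0.72. The r was 0.36 for Osr1 and Isl1 and 0.23 for Isl1 and Nfatc4. The pairs with Prdm6 had an r of 0.55 with Isl1, 0.49 with Nfatc4 and 0.37 with Osr1, and these rest on the 3 control odor libraries, since Prdm6 is at 0 in every PO library. The median over the 6 pairs was 0.43, but it rested on C4, as it was -0.047 without that library, against 0.66 without P13. All genes of a library share its depth and its dissection. With 6 libraries and 2 group means removed, these values are a description.

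**Figure D3:**
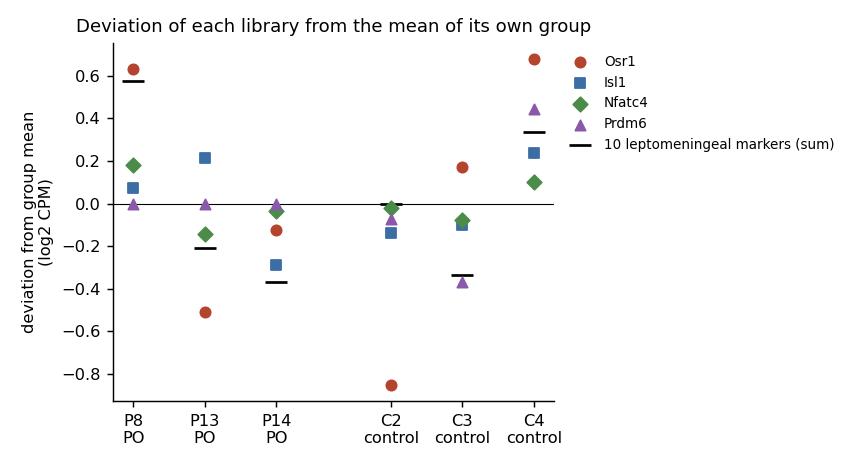
Deviation of each library from the mean of its own group on the log2 CPM scale (vertical axis) for the PO libraries P8, P13 and P14 and the control odor libraries C2, C3 and C4. Symbols are the 4 genes and black dashes the summed level of 10 leptomeningeal markers. Osr1 spreads furthest, C4 is above its group mean for all 4 genes, and P8 is above it for Osr1, Isl1, Nfatc4 and the markers.

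Names were available for 171 of the 29039 features, all of them taken from genes called in this comparison. So the genes below are the closest of the 166 named genes with a mean of at least 1 CPM. They are not the closest of the whole table. The members were drawn from the same calls, so an r over the 6 libraries in large part restates the group difference that both genes share. It is no separate result. Over the 6 libraries, the named genes closest to Osr1 were Slc6a20b, a member of a transporter family (r = 0.987), Gpc4, a heparan sulfate proteoglycan of the cell surface (r = 0.981), and Slc6a13, a GABA transporter (r = 0.981). After removal of the group means, they were Rbp4, a carrier of retinol (r = 0.961), Slc6a20b (r = 0.952) and Col5a1, a chain of type V collagen (r = 0.934). Rbp4 had 17.7, 8.83 and 12.4 CPM in PO libraries P8, P13 and P14, against 19.99, 27.3 and 35.3 CPM in control odor libraries C2, C3 and C4. As for Osr1, P13 was lowest and P8 highest in the PO group, and C2 was lowest and C4 highest in the control odor group.

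The named genes closest to Isl1 were not among those closest to the remaining 3 members. Klhdc8b, a kelch domain protein (r = 0.997), Baiap3, a Munc13-related protein of vesicle traffic (r = 0.997), and Sfxn1, a mitochondrial serine carrier (r = 0.987), were the closest over the 6 libraries. They were also the closest after removal of the group means, with r = 0.989 for Klhdc8b, 0.995 for Baiap3 and 0.943 for Sfxn1. Baiap3 had 371, 387 and 345 CPM in PO libraries P8, P13 and P14, against 442, 450 and 486 CPM in control odor libraries C2, C3 and C4, which is the order of Isl1 in all 6 libraries. Its log2 fold change was -0.32, smaller in size than the -0.84 of Isl1.

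For Nfatc4 the closest named genes were Slc13a4, a sulfate transporter (r = 0.994), Col5a1 (r = 0.992) and Cdh1, the adhesion protein E-cadherin (r = 0.990). After removal of the group means they were Igfbp2, which binds insulin-like growth factors (r = 0.968), Cdh1 (r = 0.948) and Slc13a4 (r = 0.922). Slc13a4 had 8.11, 4.30 and 3.95 CPM in PO libraries P8, P13 and P14, against 25.8, 24.8 and 39.0 CPM in control odor libraries C2, C3 and C4. Its log2 fold change, -2.44, was larger in size than that of Nfatc4.

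Prdm6 was closest to Colec12, a scavenger receptor with a collagen-like region (r = 0.997), Fndc9, a fibronectin type III domain protein (r = 0.991), and Shisal2a (r = 0.986). After removal of the group means they were Colec12 (r = 0.961), Crabp2, which binds retinoic acid in the cell (r = 0.946), and Shisal2a (r = 0.908). Colec12 had 3.50, 3.70 and 3.29 CPM in PO libraries P8, P13 and P14, against 8.27, 7.35 and 10.7 CPM in control odor libraries C2, C3 and C4. As for Prdm6, C3 was the lowest and C4 the highest control odor library. Of about 15419 tested genes with a mean of at least 1 CPM, between 0.636% and 1.10% had an r above 0.95 with a given member, which is 98 to 169 genes each. No such share was computed for the values of r below 0.95.

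Slc6a13, Slc13a4, Igfbp2, Cdh1 and Crabp2, found above beside Osr1, Nfatc4 or Prdm6, are listed here as markers of the leptomeninges, which are among the membranes around the brain. The list was not split by cell type within them. Of 18 such markers listed, 10 have a name here, and all 10 had a log2 fold change below 0, with a median of -1.64 against -0.01 over all tested genes. By edgeR 3 of the 10 passed the test, Slc6a13, Slc22a6, an organic anion transporter, and Crabp2, each with an adjusted p of 0.0481. By the same test, 40 of the 131 genes other than the members in the authors' Gene Ontology terms passed. The named markers come from genes called in this comparison, so neither their direction nor the number that passed is independent evidence. Their summed level was 83.1, 48.3 and 43.2 CPM in PO libraries P8, P13 and P14, against 201, 159 and 253 CPM in control odor libraries C2, C3 and C4. The control odor mean of the sum was 3.51 times the PO mean. None of the 10 was at 0 in all PO libraries, and Cdh1 was at 0 in P13. The most abundant were Igfbp2, Col1a1, a chain of type I collagen, and Slc13a4.

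**Figure D4:**
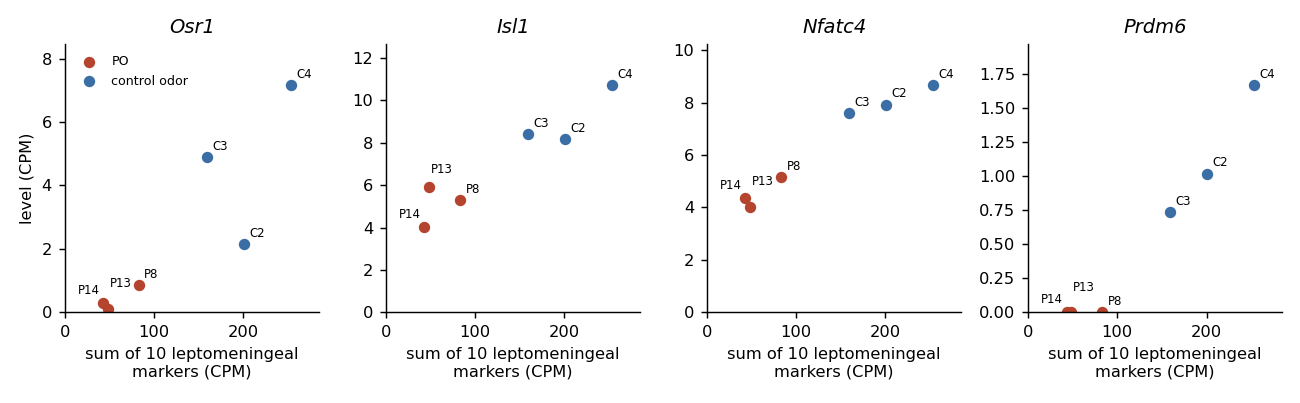
Level of each gene in CPM (vertical axis, its own scale for each gene) against the summed CPM of 10 leptomeningeal markers (horizontal axis) in the 3 PO libraries (red) and the 3 control odor libraries (blue). The marker sum is 43.2 to 83.1 CPM in PO libraries and 159 to 253 CPM in control odor libraries, and the groups are apart on both axes in all 4 plots.

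The marker sum moved with the 4 genes between groups, and its part in their levels was not tested. Within groups, the r of deviations with the log2 marker sum was 0.91 for Nfatc4, 0.58 for Osr1, 0.55 for Prdm6 and 0.54 for Isl1. The value for Prdm6 rests on the control odor libraries alone. Igfbp2, Cdh1 and Slc13a4, the named genes closest to Nfatc4 within groups, are themselves part of the sum. What share of all tested genes reaches such an r with the sum was not computed, so these values are a description. Set against 100 CPM of these markers, the genes took different directions. These follow from the group differences already given, where the control odor mean was 3.51 times the PO mean for the marker sum. It was 1.79 times for Isl1 and Nfatc4 and 11.3 times for Osr1. The ratios are therefore a description and no separate result. Prdm6 was at 0 in every PO library and at 0.508, 0.462 and 0.660 CPM per 100 marker CPM in control odor libraries C2, C3 and C4. Osr1 stood at 1.02, 0.229 and 0.693 CPM per 100 marker CPM in PO libraries P8, P13 and P14, against 1.07, 3.08 and 2.83 in control odor libraries C2, C3 and C4. On this ratio P8 was close to C2. Nfatc4 stood at 6.20, 8.34 and 10.1 in the PO libraries and 3.95, 4.77 and 3.43 in the control odor libraries, so that here the PO libraries were the higher ones. The same held for Isl1, with 6.39, 12.2 and 9.28 in the PO libraries and 4.07, 5.28 and 4.23 in the control odor libraries.

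The few named markers of other cell types were higher in PO libraries. The 2 named oligodendrocyte markers of 9, Olig2, a transcription factor of that lineage, and Klk6, a protease, summed to between 103 and 124 CPM in PO libraries and between 62.7 and 76.8 CPM in control odor libraries. The only named choroid plexus marker of 8, the folate receptor gene Folr1, had between 8.11 and 17.2 CPM in PO libraries and between 3.77 and 5.15 CPM in control odor libraries. Olig2 passed edgeR's test (adjusted p = 0.0238), whereas Klk6 (adjusted p = 0.0941) and Folr1 (adjusted p = 0.077) did not, and these names too come from genes called in this comparison. The part of these cell types in the levels of the 4 genes was not tested either.

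The deposited Gene Ontology table lists terms held by the called genes, and it places the 4 members together in 41 terms. One of them is negative regulation of transcription, DNA-templated, with 15 called genes. Of the 11 genes beside the 4 members, 3 had a log2 fold change below 0 and 8 above 0. The authors had called all genes of these terms in the same libraries, so passing edgeR's test here is no independent evidence. Over the 131 annotated genes other than the members, 40 passed. Of the 11 genes, 5 passed, and all 5 had a log2 fold change above 0. These were Olig2 (log2 fold change 0.58, adjusted p = 0.0238), the deacetylase gene Sirt2 (0.40, adjusted p = 0.027), the calcium-binding protein gene S100a1 (0.51), the metallothionein gene Mt3 (0.38) and the stress-related transcription factor gene Atf5 (0.33), the last 3 with an adjusted p of 0.0481. The 3 genes below 0 did not pass. They were the T-box factor gene Tbx3 (-1.62, adjusted p = 0.245), the endocytic adaptor gene Dab2 (-1.03, adjusted p = 0.0519) and Myef2 (-0.46, adjusted p = 0.0705). The immediate early gene Egr1 had a log2 fold change of 0.88 and did not pass (adjusted p = 0.162). Related terms had other splits. Negative regulation of cell differentiation also held all 4 members, with 12 others, 6 below and 6 above 0. Positive regulation of transcription, DNA-templated, held Osr1, Isl1, Nfatc4 and 17 others, 11 below and 6 above 0. Transcription factor activity, sequence-specific DNA binding, held Isl1, Nfatc4 and 10 others, 3 below and 7 above 0.

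**Figure D5:**
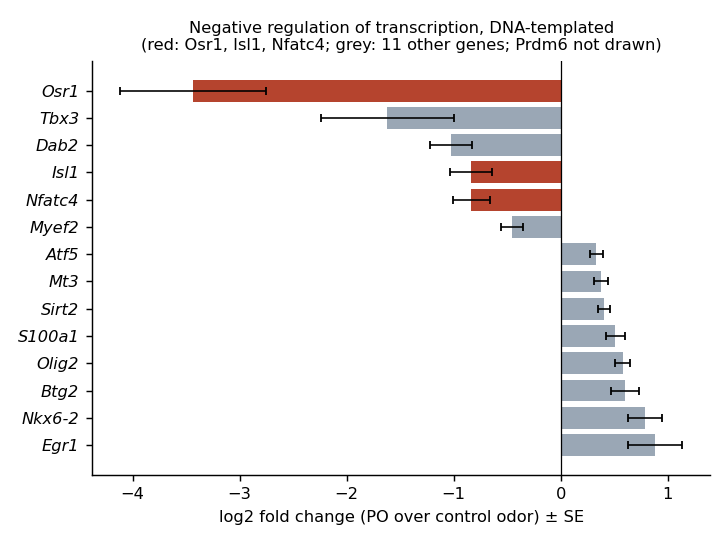
log2 fold change of PO over control odor with its SE (horizontal axis) for called genes annotated to negative regulation of transcription. Red bars are Osr1, Isl1 and Nfatc4 and grey bars the 11 other genes. Prdm6 is not drawn, as its PO counts are all 0. The 3 red bars and Tbx3, Dab2 and Myef2 lie below 0, and the other 8 bars lie above 0.

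Muscle cell differentiation held Isl1, Nfatc4, Prdm6 and 6 other called genes, all 6 with a log2 fold change below 0, whereas 80 of all 131 other annotated genes were below 0. Of the 6, Epas1, a hypoxia-inducible transcription factor gene (-0.37, adjusted p = 0.0428), Mtpn, which encodes myotrophin (-0.46, adjusted p = 0.0481), and RGD1311744 (-0.51, adjusted p = 0.0481) fell by edgeR's test. Cyp26b1, which encodes an enzyme that breaks down retinoic acid (-2.48, adjusted p = 0.0519), the membrane protease gene Mmp14 (-0.76, adjusted p = 0.105) and Tbx3 did not pass. So 3 of the 6 passed, beside 40 of the 131, and these genes too come from the authors' calls in the same libraries. Tbx3 had 6.30, 1.60 and 1.38 CPM in PO libraries P8, P13 and P14, against 8.33, 10.7 and 9.97 CPM in control odor libraries C2, C3 and C4, with P8 apart from the other PO libraries. The term muscle structure development held Isl1, Nfatc4, Prdm6 and 11 others, 8 below and 3 above 0. Smooth muscle cell differentiation held Nfatc4 and Prdm6 and no other called gene. Nervous system development held Isl1, Nfatc4, Prdm6 and 26 others, 12 below and 14 above 0. The terms were picked after the values had been seen and no enrichment was tested.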

How the data were processed

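RNA from the VMH of 6 rats was analysed, with groups taken from the labels. Raw counts were deposited for each gene. The authors had aligned the reads with HISAT2 on the Ensembl Rnor_5.0 genome and counted them with HTSeq in union mode. The submitters' processing notes also name CASAVA 1.8 and DESeq. The FPKM table was deposited by the authors and comes from the same counts. Whether counting used strand is not stated in these sources. The deposited tables of called genes and of Gene Ontology terms also hold the fold changes and p-values of the authors' own comparison. Those columns were not used, and the tables gave gene names and term members only.

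Gene names came from the deposited table of called genes (150 IDs) and a table of the paper (40 IDs), 171 IDs in all. The members, gene lists and tests were chosen with earlier results of these data known. The named genes were the 4 members, the 3 named genes with the highest r with each member (over the 6 libraries, and after removal of group means), and up to 3 of the most abundant markers of a list. Genes of the Gene Ontology terms and Slc22a6 were chosen with their values in view. The lists of calcineurin and NFAT genes (26 genes other than the members), LIM homeodomain factors and cofactors (21), the PRDM family (16), odd-skipped and mesenchymal factors (29) and Isl1-related hypothalamic neuron genes (23) had 0 named genes each, so no count could be given for them. The same held for the marker lists of VMH, arcuate, other hypothalamic and general neurons, mural and endothelial cells, ependymal cells and tanycytes, astrocytes, and microglia and macrophages.

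Counts were analysed with edgeR 4.0.16 in R 4.3.3 (TMM, filterByExpr with a minimum count of 10, robust quasi-likelihood fit, Benjamini-Hochberg over 16685 genes). DESeq2 1.42.0 and voom in limma 3.58.1 were alternatives, besides other normalizations, no filter and each replicate left out. The SE given for a log2 fold change is its size divided by the square root of the quasi-likelihood F statistic. It thus restates that test, and for the members it is a description only. Poisson intervals are at 95%. Python 3.11.15 with SciPy 1.17.1, NumPy 2.4.6 and pandas 2.3.3 made the tables, and Matplotlib 3.10.9 drew the figures. Promoter windows are from RefSeq (GRCr8), another build than that of the counts.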

Additional observations from a re-analysis of the deposited data

How the results depend on the processing

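Over 13 alternative settings for each of the 4 genes, 52 values in all, every log2 fold change stayed below 0. Of these, 48 moved by less than 1 SD of the difference between a PO library and a control odor library. This SD is the square root of the summed within-group variances of log2 CPM. It is a wide limit, at least as large as the SD within either group. With 1 library left out, Osr1 ranged between -4.50 and -2.99. Prdm6, at 0 counts in every PO library, was at -6.82 with DESeq2, -5.36 with voom and -2.87 on the log2(FPKM + 0.1) scale, values that depend on how a 0 is treated. The number of genes called over the whole table, 59 with edgeR (24 higher and 35 lower), was 103 with library size alone, 433 without a filter on low counts, 865 with DESeq2, 3 with voom and 2 with edgeR without its robust option, and between 9 and 266 with 1 library left out (9 without C2, C4 or P14, 15 without C3, 135 without P8 and 266 without P13). The cause was not tested. No member was among edgeR's calls without the robust option or without C2, C3, C4 or P14.

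No paired analysis was possible because the groups share no replicate number. With 3 libraries a group, 24 counts of Osr1 and 0 of Prdm6 over the PO libraries, depth limits what can be said of their PO level. The 1 library per rat gives no technical error, and no batch is given by the labels.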
